A study of Homo sapiens with 3 samples.

Results

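The platelet-derived growth factor (PDGF) family was followed in PANC-1 cells, an established human pancreatic ductal cancer line, across untreated control cells and cells exposed to cantharidin or okadaic acid. All 6 listed genes were taken, namely the ligands PDGFA, PDGFB, PDGFC and PDGFD and the receptors PDGFRA and PDGFRB. They were found by matching the transcript accession of each array probe to RefSeq, and accounted for 7 probes among the 25705 that could be named, or 6 genes of 19699. Each condition was a single 1-colour Agilent array. The labels give 20 µM and 24 h for cantharidin and for okadaic acid, and they name no vehicle for the control cells. Both compounds inhibit protein phosphatase 2A, a serine/threonine phosphatase that restrains several kinase cascades, and the study asked whether angiogenic factors change with its inhibition. With 1 array per condition there was no replicate culture, so no difference below carries a test or a p-value.

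PDGF ligands are secreted, disulfide-linked dimers. PDGF-A and PDGF-B are cut inside the cell by furin-type convertases, while PDGF-C and PDGF-D leave the cell in a latent form and are opened outside it by proteases. PDGFRA binds A, B and C chains and PDGFRB binds B and D chains, and both are receptor tyrosine kinases. In pancreatic tumours, ligands made by carcinoma cells act mainly on stellate cells, fibroblasts and pericytes, the usual carriers of the receptors.

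The arrays were of 1 slide and 1 scan, so position on the slide and treatment cannot be told apart. Among 34041 probes, between 23071 and 25103 per array were well above background, meaning that the scanner software found the spot clearly brighter than its local surroundings. The dimmest such signal served as the floor of its array, which was 35.0 in control cells, 21.9 after cantharidin and 58.0 after okadaic acid. Signals are given below as scanner intensities before scaling, and differences as log2 values or folds after dividing each array by its 75th percentile, which was 784, 713 and 936 in the same order. A difference was called at 1.5-fold. Of the ductal markers KRT7, KRT8, KRT18, KRT19, EPCAM, SOX9 and CDH1, all 7 were well above background in control cells, and CDH1 alone was not after either treatment. RNA came from whole cultures, in which fewer cells of a type and less RNA per cell cannot be told apart.

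PDGFA encodes the A chain, a ligand of PDGFRA. The array carries it as 10 spots of a probe made for transcript NM_002607 and as a single spot of a probe for NM_033023. On the control array, 9 spots of the former without an outlier flag ranged from 298 to 341 with a median of 324, and the flagged spot read 465. The 10 spots on the cantharidin array ranged from 231 to 282 with a median of 246. Those on the okadaic acid array ranged from 944 to 1098 with a median of 1053. All okadaic acid spots thus lay above every control and cantharidin spot, whereas the scaled control and cantharidin spots overlapped.

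**Figure D1:**
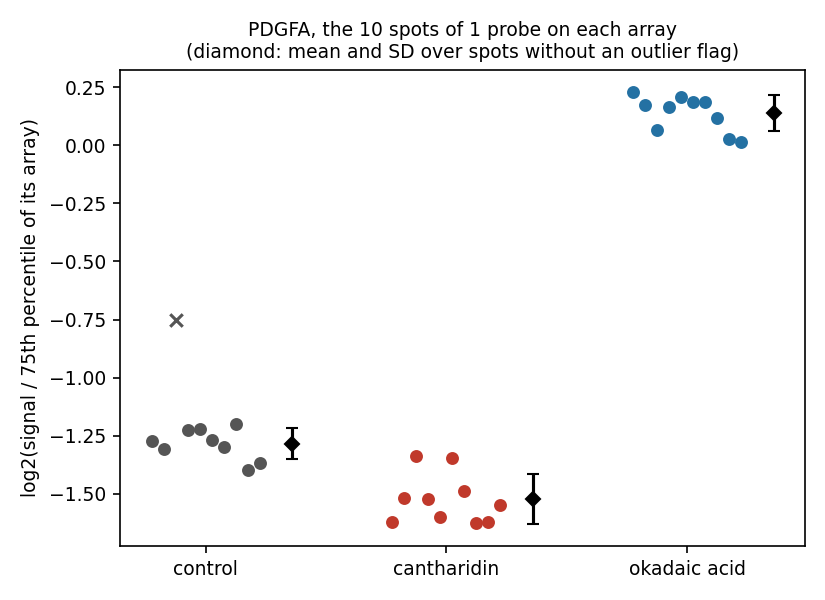
The 10 spots of the repeated PDGFA probe on each array, as log2 of signal over the array's 75th percentile (vertical axis); the cross is the flagged control spot, and diamonds with bars are the mean and SD over unflagged spots. Means were -1.28 in control cells, -1.52 under cantharidin and 0.14 under okadaic acid, and the okadaic acid spots stood apart from the others.

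On the scaled log2 scale this probe stood at -1.28 ± 0.07 (SD over 9 spots) in control cells, -1.52 ± 0.11 (SD over 10 spots) under cantharidin and 0.14 ± 0.08 (SD over 10 spots) under okadaic acid. PDGFA was therefore 2.68-fold higher under okadaic acid than in control cells, a log2 difference of 1.42 with a standard error over spots of 0.03. Cantharidin gave a log2 difference of -0.24 with a standard error of 0.04, or 1.18-fold, which did not reach 1.5-fold. Spots share 1 hybridisation, so these errors hold the spread within an array and not that between cultures. Set against each other, okadaic acid exceeded cantharidin by 3.16-fold. By real-time PCR, a separate measurement scaled to B2M, the paper counts PDGFA among the genes that cantharidin raised. The paper does not name PDGFA among the genes that both agents raised on the arrays.

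The single-spot PDGFA probe read 138 in control cells, 99.0 under cantharidin and 167 under okadaic acid, all well above background but within 4.52 times the floor of the array. It did not follow the repeated probe. Its log2 difference was 0.02 under okadaic acid, with an error of 0.24 from the scanner's own error model, and -0.34 under cantharidin, with an error of 0.23. The gap between the probes was 1.40 under okadaic acid, with an error of 0.32, and 0.10 under cantharidin, with an error of 0.31. Thus the rise of PDGFA under okadaic acid was seen with 1 of its 2 probes. Which exons or transcript ends each probe covers was not analysed here, since no probe sequences were used.

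RefSeq lists several starts for PDGFA, and promoter windows were read for them because early growth response and Sp/KLF factors are textbook regulators of this gene. The windows hold the 250 bases before each annotated start in GRCh38.p14, on the minus strand. They are printed 5′ to 3′ with capitals marking every match, on either strand, to the GC box GGGGCGGGG or the early growth response motif GCGGGGGCG. These motifs share letters and their matches overlap. In the first window, chr7:520227-520476, 68.8% of bases were G or C, and in the second, chr7:519847-520096, 81.6%, against a median of 58.0% over all 35116 RefSeq windows of this length.
PDGFA start 1: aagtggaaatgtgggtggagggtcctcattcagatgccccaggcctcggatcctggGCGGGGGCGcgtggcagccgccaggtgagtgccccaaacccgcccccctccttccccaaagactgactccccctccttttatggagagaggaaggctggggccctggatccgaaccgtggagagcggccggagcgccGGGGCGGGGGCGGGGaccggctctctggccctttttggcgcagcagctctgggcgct
PDGFA start 2: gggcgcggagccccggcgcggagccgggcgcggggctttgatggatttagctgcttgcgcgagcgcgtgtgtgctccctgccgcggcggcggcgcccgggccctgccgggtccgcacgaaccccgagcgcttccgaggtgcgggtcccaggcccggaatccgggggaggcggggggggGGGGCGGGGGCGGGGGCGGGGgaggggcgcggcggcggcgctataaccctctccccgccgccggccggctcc

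The first window held early growth response matches beginning 194 and 54 bases before the start and GC boxes beginning 57 and 51 bases before it. In the second, 3 GC boxes and 2 early growth response matches formed 1 overlapping run beginning 72 bases before the start. Of the 4 PDGFA windows in the table, 3 held a GC box and 2 an early growth response match. Over all windows, 15.1% held the GC box and 4.72% the early growth response motif. A match describes the letters only, and no binding was measured. PDGFB and PDGFC had no entry in the promoter table.

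PDGFB encodes the B chain, a ligand of both receptors. Its probe read 1217 in control cells, 224 under cantharidin and 1031 under okadaic acid. The cantharidin signal was the low one, at 10.2 times the floor of its array. PDGFB was 4.95-fold lower under cantharidin than in control cells, a log2 difference of -2.31 with a scanner error of 0.21. Only 5.89% of the probes compared lay at or below this difference. Under okadaic acid the log2 difference was -0.49 with an error of 0.21, or 1.41-fold, short of the threshold, although scaling to the array median moved it to -0.62. Okadaic acid exceeded cantharidin by 3.51-fold. On its antibody array, the paper reports more PDGF-BB protein, the B-chain dimer, after both compounds. Protein was not measured by the arrays used here.

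PDGFC encodes a ligand that is secreted in latent form and binds PDGFRA once cut. Its probe read 1807 in control cells, 455 under cantharidin and 577 under okadaic acid. Unlike PDGFA and PDGFB, it was low in both treated samples. The fall was 3.61-fold under cantharidin, with a log2 difference of -1.85 and an error of 0.20, and 3.74-fold under okadaic acid, with a log2 difference of -1.90 and an error of 0.21. Between the treated arrays PDGFC differed by -0.05 with an error of 0.21, and the sign of this small difference changed with the scaling.

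PDGFD, the latent ligand of PDGFRB, read 12.6 in control cells, 11.5 under cantharidin and 13.1 under okadaic acid. PDGFRA, the receptor for A, B and C chains, read 13.6, 13.3 and 34.5 in the same order. Neither gene was well above background on any array, and both stayed below the floor of each array, at no more than 0.524 times it for PDGFD and 0.608 times it for PDGFRA. No fold is given for them.

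PDGFRB, the receptor for B and D chains and a marker of pericytes and fibroblasts, read 17.5 in control cells, 375 under cantharidin and 36.8 under okadaic acid. Only the cantharidin signal was well above background, at 17.1 times the floor, while those of the control and okadaic acid arrays lay at 0.501 and 0.635 times theirs. Against the control floor, PDGFRB was at least 11.8-fold higher under cantharidin. Okadaic acid was at least 8.50-fold lower than cantharidin, and no fold was given for okadaic acid against control because both were below background. These bounds depend on the floor, since the normexp background correction, which adds an offset to every signal, gave 4.47-fold and 4.38-fold, and the deposited normalised table gave 42.9-fold and 23.5-fold.

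**Figure D2:**
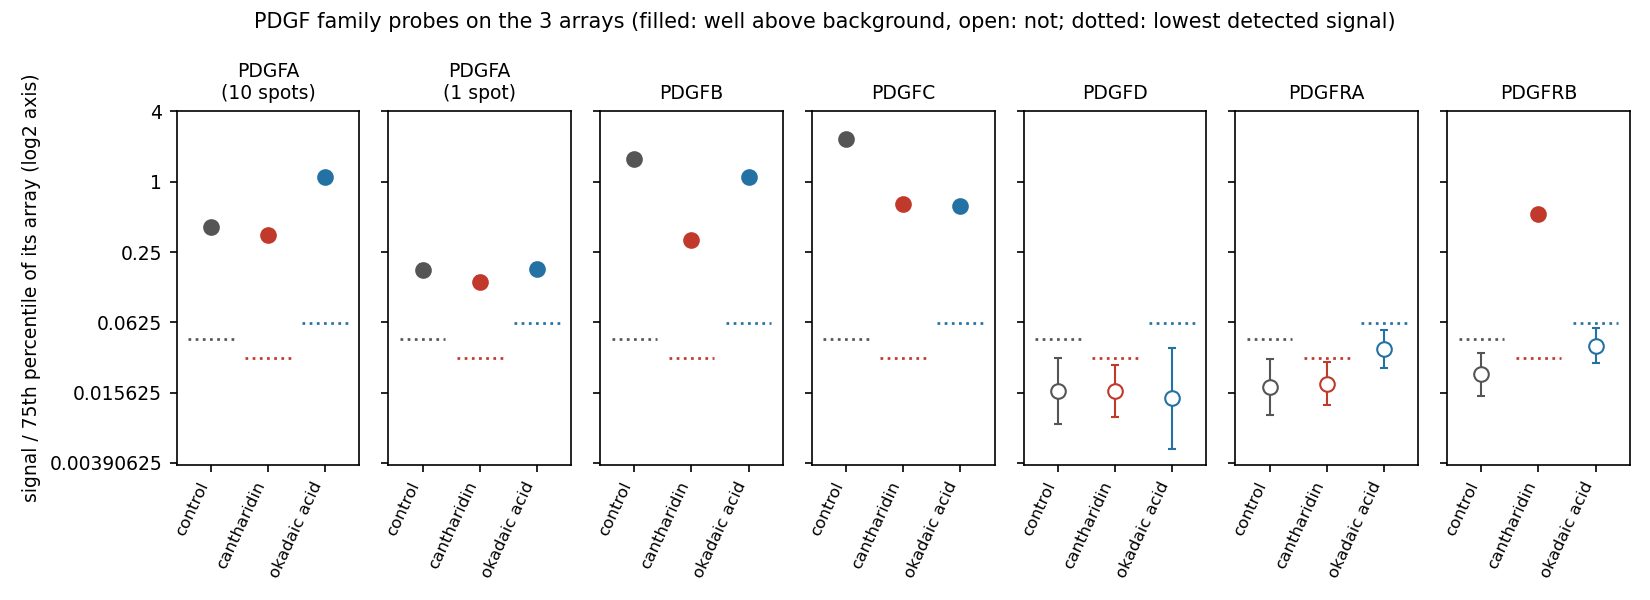
Signal of each PDGF probe over the 75th percentile of its array (vertical, log2 axis) on the array of each condition; filled points were well above background, open points were not, bars are the scanner's error of the signal (hidden where smaller than the point), and dotted lines mark the floor of each array. PDGFRB crossed its floor under cantharidin alone, and PDGFD and PDGFRA on no array.

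PDGFRB rests on 1 spot per array. The spot carried no outlier flag on any array, and the 7 spots printed next to it on the cantharidin array ranged from 5.57 to 2916 with a median of 141. In all, 1300 probes, or 3.82%, were well above background under cantharidin alone, and PDGFRB ranked 84 among them by the size of its bound, whose median was 1.43-fold. Of the 5 fibroblast markers COL1A1, COL1A2, COL3A1, DCN and LUM, 3 were well above background in control cells and 2 on each treated array, with summed intensities of 726, 274 and 204. Within that list COL3A1, a fibrillar collagen, read 79.8, 195 and 60.2, whereas COL1A1 read 528 in control cells and was not well above background after either treatment. Of the 6 pericyte and smooth muscle markers RGS5, CSPG4, ACTA2, MYH11, DES and MCAM, 3 in control cells, 3 after cantharidin and 2 after okadaic acid passed the background flag, with summed intensities of 5584, 3910 and 4882. RGS5, CSPG4 and MYH11 were below it on all arrays, and none of the 3 compared under cantharidin was higher there. For endothelium, CDH5 and VWF passed the flag on each array and PECAM1 on the control array with 1 of its 3 probes, and the brightest probes summed to 2261, 1315 and 1589. For blood cells, PTPRC and CD68 passed it on each array, with sums of 3317, 4157 and 13135 over the brightest probes. The 4 PTPRC probes disagreed. The brightest was at -0.36 under cantharidin and -0.13 under okadaic acid (log2), and another, below background in control cells, read 26.0, 179 and 132, at least 5.63-fold and 3.15-fold higher. Single genes made up most of several sums, with DES at 4080 and VWF at 1814 in control cells and CD68 at 12731 under okadaic acid. The labels name PANC-1 cells alone. Whether other cell types were present, or contributed to the PDGFRB signal, was not tested.

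The PDGFRB window is shown beside those of PDGFA, as the promoter of the receptor that crossed background. It spans the 250 bases before the start at chr5:150155846-150156095 on the minus strand of GRCh38.p14 in RefSeq, and capitals mark the CCAAT motif.
PDGFRB: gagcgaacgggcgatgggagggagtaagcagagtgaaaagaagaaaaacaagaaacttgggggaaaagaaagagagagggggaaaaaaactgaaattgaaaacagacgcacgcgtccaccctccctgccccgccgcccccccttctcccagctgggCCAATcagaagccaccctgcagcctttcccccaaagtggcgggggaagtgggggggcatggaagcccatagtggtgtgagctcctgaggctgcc
The CCAAT match began 94 bases before the start, and no GC box or early growth response match was present. CCAAT was held by 32.0% of all windows. The single PDGFD window and both PDGFRA windows also lacked the GC box and the early growth response motif, and 1 of the PDGFRA windows held CCAAT. Of the 4 PDGFA windows, 1 that is not printed held CCAAT too, beginning 137 bases before its start. That window had neither a GC box nor an early growth response match.

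Counted over probes, cantharidin against control allowed 5 of the 7 to be compared, of which 1 was higher (PDGFRB), 2 were lower (PDGFB and PDGFC) and 2 were within 1.5-fold (both PDGFA probes). That share of 60.0% past the threshold is close to the background of these arrays, where 59.5% of 26769 probes were past it, 26.4% higher and 33.0% lower. For okadaic acid against control, 4 probes could be compared, with PDGFA higher on its repeated probe, PDGFC lower and 2 within 1.5-fold. These 2 of 4 compare with 54.2% of all 25714 probes, with 26.5% higher and 27.7% lower. In the comparison of okadaic acid with cantharidin, PDGFA on its repeated probe and PDGFB were higher and PDGFRB lower. That was 60.0% of the 5 compared, against a background of 50.5%, with 28.0% higher and 22.5% lower. The family as a whole was thus past 1.5-fold about as often as the rest of the array, and the members differed from each other in direction and in agent.

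**Figure D3:**
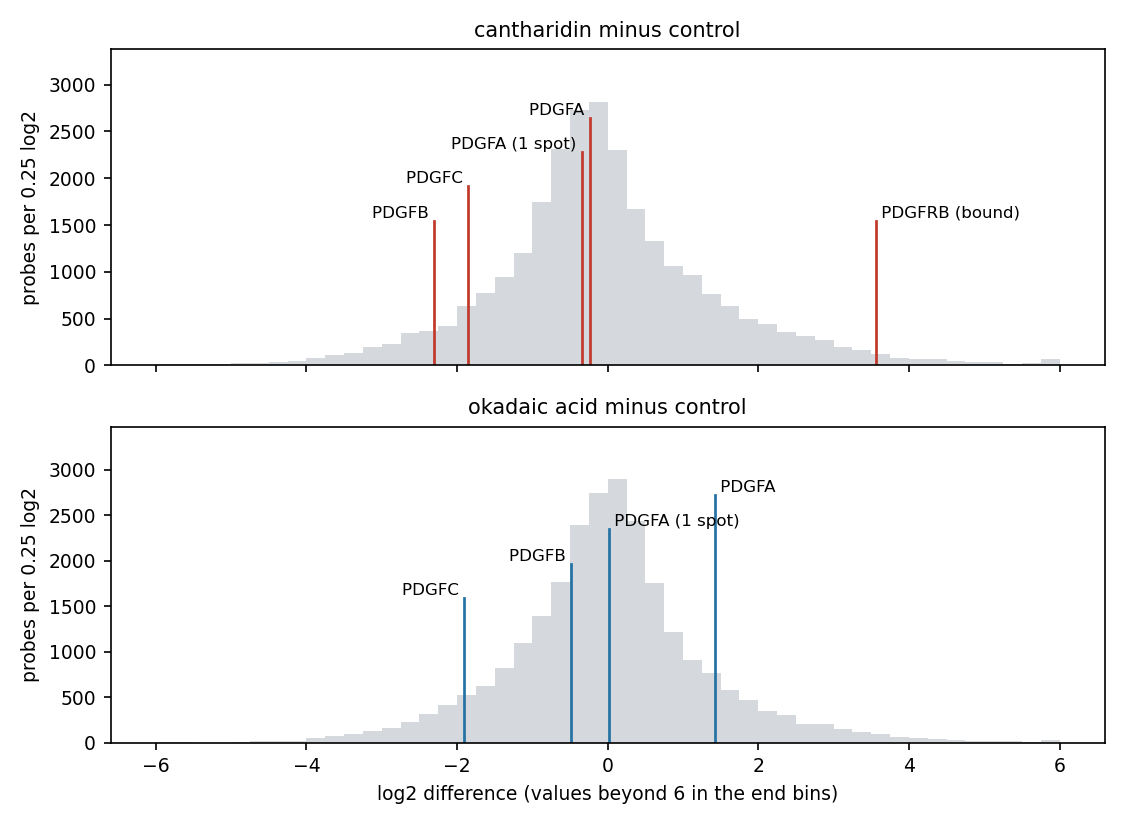
Number of probes by log2 difference from control (grey bars, 0.25 per bin) for cantharidin above and okadaic acid below, with a line at each PDGF probe measured on at least 1 of the arrays. PDGFB, PDGFC and the PDGFRB bound lay in the outer parts of the cantharidin distribution, and PDGFC and the repeated PDGFA probe in those of okadaic acid.

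Cantharidin and okadaic acid were compared with the same control array, so their differences from it are not independent and are only set side by side. PDGFA changed by -0.24 and 1.42 on its repeated probe, PDGFB by -2.31 and -0.49, and PDGFC by -1.85 and -1.90 (log2). Of 21702 probes that passed the background flag on each of the 3 arrays, 146, or 0.673%, moved as far as the repeated PDGFA probe or further in the same directions under both agents. The corresponding shares were 10.6% for the single-spot PDGFA probe, 4.06% for PDGFB and 3.17% for PDGFC. The share for the repeated PDGFA probe depends on the sign of its cantharidin difference, which was short of 1.5-fold. By the okadaic acid difference alone, 88.2% of the probes compared lay below that probe. Among 14222 genes well above background on all 3 arrays, the pairs of log2 differences nearest to that of PDGFA were those of C4B, MAP1A and BAZ1A, at distances of 0.01, 0.01 and 0.02. C4B has a near-identical neighbouring copy, whose transcripts its probe may also bind. Nearest to PDGFB were TMEM276, CNNM2 and THAP8, at distances of 0.01, 0.02 and 0.03. These patterns rest on 3 arrays, and 10 and 11 genes lay within 0.1 of PDGFA and of PDGFB.

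**Figure D4:**
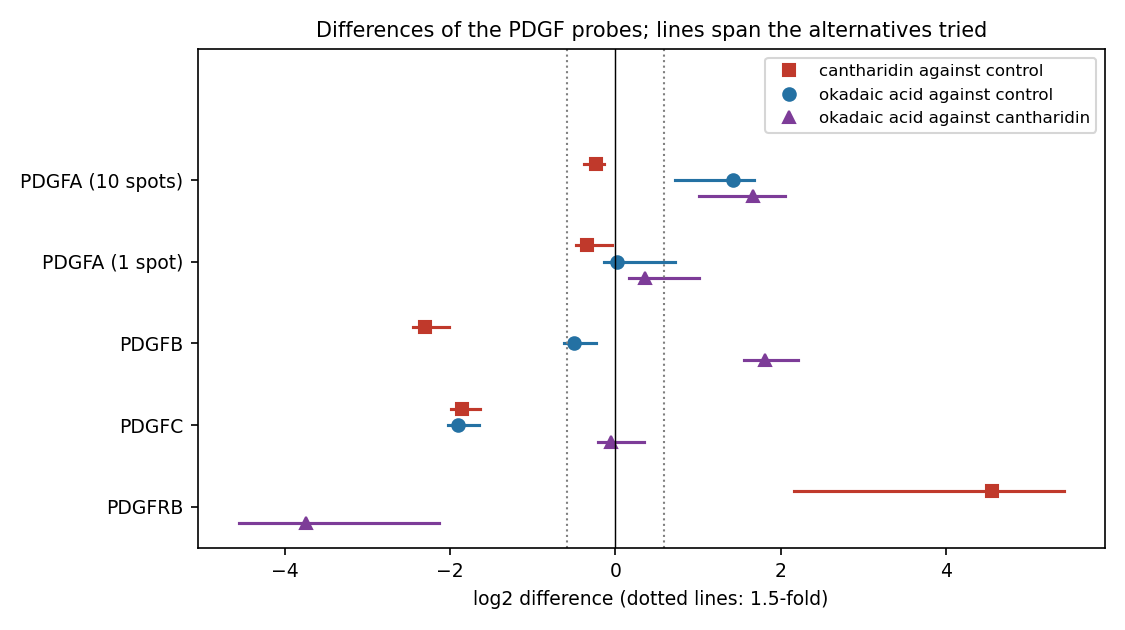
Log2 difference of each measured PDGF probe (horizontal axis) for the 3 comparisons, with coloured lines spanning the alternatives tried and dotted lines at 1.5-fold; a PDGFRB point is the difference of the signals as scanned, with the dim side below the floor. PDGFB and PDGFC under cantharidin, PDGFC and the repeated PDGFA probe under okadaic acid, and PDGFRB kept their side of the threshold in every alternative that gave them a value. For probes detected on all 3 arrays, the settings for filters and dim signals could not change the value.

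The proteins that cut, bind, transmit or limit PDGF signals were examined through 76 genes in 6 lists, each gene by its probe with the highest mean signal. Under cantharidin, 17 of the 71 that could be compared were at least 1.5-fold higher and 26 lower, or 60.6%, against 61.6% of all 16644 genes compared (27.5% higher, 34.1% lower). Under okadaic acid, 20 of 72 were higher and 20 lower, or 55.6%, against 56.9% of 16166 genes (28.1% higher, 28.8% lower). Okadaic acid exceeded cantharidin by 1.5-fold for 31 of 72 genes and fell below it for 11, or 58.3%, against 51.8% of 16200 genes (29.5% higher, 22.3% lower). Median log2 differences were -0.05, -0.12 and 0.27 in these comparisons, beside -0.16, 0.01 and 0.13 over all genes.

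Among 7 convertases and proteases that cut PDGF ligands, 6 could be compared under cantharidin, with 1 higher and 2 lower and a median log2 difference of -0.15. Under okadaic acid 2 of 7 were higher and 2 lower, with a median of -0.31. The share past 1.5-fold was below the 61.6% of all genes under cantharidin. Under okadaic acid it was 57.1%, beside 56.9% of all genes. PCSK5, counted as higher under okadaic acid, read 84.2 there, only 1.45 times the floor, and was below background on the other arrays. PCSK6 was within 1.5-fold under cantharidin on its brighter probe, at 0.53 (log2), but its other probe was at -1.30. FURIN, the convertase that matures the A and B chains, read 273 in control cells, 90.6 under cantharidin and 40.1, not well above background, under okadaic acid. The fall was 2.74-fold under cantharidin and at least 5.61-fold under okadaic acid. PCSK7, a related convertase, was higher under both agents, by 1.81-fold and 2.37-fold, although its other probe was at 0.39 and 0.28 (log2). PLAT, the tissue plasminogen activator that opens PDGF-C, read 334, 22.1 and 289, the value under cantharidin being below background, and was at least 13.8-fold lower there and within 1.5-fold under okadaic acid. ST14, a protease that opens PDGF-D, was within 1.5-fold under both agents. PLAU, another one, was within it on its brighter probe, while its other probe was 1.15-fold lower under cantharidin and passed the threshold under okadaic acid, at 2.30-fold lower. FURIN, PLAT, PCSK5 and PCSK6 were picked out after their values had been seen.

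Of 6 binding proteins and co-receptors, 5 could be compared by their brightest probes. On these, 4 were lower under cantharidin and 3 under okadaic acid, beside 34.1% and 28.8% of all genes, with medians of -1.99 and -1.22. No brightest probe was past 1.5-fold higher, but other probes of LRP1 and HSPG2 were under okadaic acid. For LRP1, an endocytic receptor that associates with PDGFRB, the brightest probe was within 1.5-fold under both agents and the other was at -0.28 and 0.94 (log2). NRP1, a co-receptor for several growth factors, read 1190 in control cells, 71.7 under cantharidin and 217 under okadaic acid, which was 15.1-fold and 6.53-fold lower. Its other probe fell further, by 5.39 and 4.89 on the log2 scale. HSPG2, a basement membrane heparan sulfate proteoglycan, was 3.98-fold and 2.32-fold lower on its brightest probe, but its 4 probes ranged from -1.99 to 0.54 and from -1.22 to 0.95. PDGFRL, a secreted receptor-like protein, read 186, 5.49 and 70.7, with the cantharidin signal below background, so its fall was at least 7.73-fold with cantharidin, and it was 3.14-fold with okadaic acid. Like FURIN and PLAT, it was picked out after its values had been seen.

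Of 25 adaptors and effectors that dock on the receptors, 23 could be compared. Under cantharidin 5 were higher and 9 lower with a median of -0.28, and under okadaic acid 3 were higher and 8 lower with a median of -0.45. Past 1.5-fold were thus 60.9% and 47.8%, beside 61.6% and 56.9% of all genes. The transcription factor STAT5B was 3.02-fold lower with cantharidin and 8.52-fold lower with okadaic acid. RAPGEF1, an exchange factor that binds CRK adaptors, was 3.77-fold and 3.00-fold lower, with its other probe at -0.23 and -0.32 (log2). In the other direction moved FYN, a Src family kinase, at 2.90-fold and 2.30-fold higher, and NHERF1, a scaffold that binds the receptor tail, at 2.27-fold and 4.68-fold higher. NCK2, an adaptor with SH2 and SH3 domains, was 1.52-fold higher after cantharidin but 1.87-fold lower after okadaic acid on its brighter probe. Its other probe, at 0.41 and -0.10 (log2), passed 1.5-fold under neither agent.

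Negative regulators of the receptors included 12 genes, all compared. Under cantharidin 3 were higher and 4 lower with a median of 0.15, and under okadaic acid 6 were higher and 3 lower with a median of 0.62. The share past 1.5-fold under cantharidin was 58.3%, below the 61.6% of all genes. Under okadaic acid the share was above the 56.9% of all genes, of which 28.1% were higher and 28.8% lower. The ubiquitin ligase gene CBL read 1964 in control cells, 9989 under cantharidin and 4259 under okadaic acid, or 5.60-fold and 1.82-fold higher. Its relative CBLB was 5.43-fold and 8.33-fold higher, with the other probe at 0.27 and 0.85 (log2). SOCS1, an inhibitor of cytokine receptor signalling, was 2.95-fold and 9.36-fold higher. PTPRJ, a phosphatase that acts on PDGFRB, fell from 1828 to 81.0 and 540, or 20.5-fold and 4.04-fold. Its other probe was below background on both treated arrays and at least 1.56-fold lower under cantharidin. No bound is given for that probe under okadaic acid, because the scaled floor of that array lay above its scaled control signal. LRIG1, a membrane protein that lowers the amount of receptor tyrosine kinases, was 1.62-fold lower after cantharidin but 2.52-fold higher after okadaic acid.

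Among 13 transcription factors described at the PDGFA or PDGFB promoters, 3 were higher and 2 lower under each agent, and 8 were within 1.5-fold. The medians were 0.26 and 0.17. That is 38.5% past 1.5-fold under each agent, against 61.6% and 56.9% of all genes. EGR1, the early growth response factor whose motif was searched above, read 1003 in control cells, 78135 under cantharidin and 104523 under okadaic acid. It was 85.8-fold and 87.3-fold higher. Whether EGR1 acts on PDGFA in these cells was not tested. KLF4 was 1.93-fold and 2.47-fold higher, and KLF5, another zinc finger factor, 1.71-fold and 6.26-fold higher. SP1, which binds GC boxes, was within 1.5-fold under both agents.

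Early genes that PDGF induces in fibroblasts were 14, of which 13 could be compared. Under cantharidin 6 were higher and 5 lower with a median of 0.32, and under okadaic acid 7 were higher and 2 lower with a median of 1.07. Their shares past 1.5-fold, 84.6% and 69.2%, compare with 61.6% and 56.9% of all genes. Besides EGR1, the AP-1 subunit FOSB was 15.7-fold and 16.4-fold higher and FOS 2.85-fold and 17.7-fold higher. MYC, a growth-promoting transcription factor, fell from 88284 to 5889 and 18519, or 13.6-fold and 5.69-fold. IER3, an early gene tied to survival signalling, was lower by 2.68-fold after cantharidin but higher by 2.10-fold after okadaic acid. Many stimuli other than PDGF induce these genes, and the arrays do not tell them apart.

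**Figure D5:**
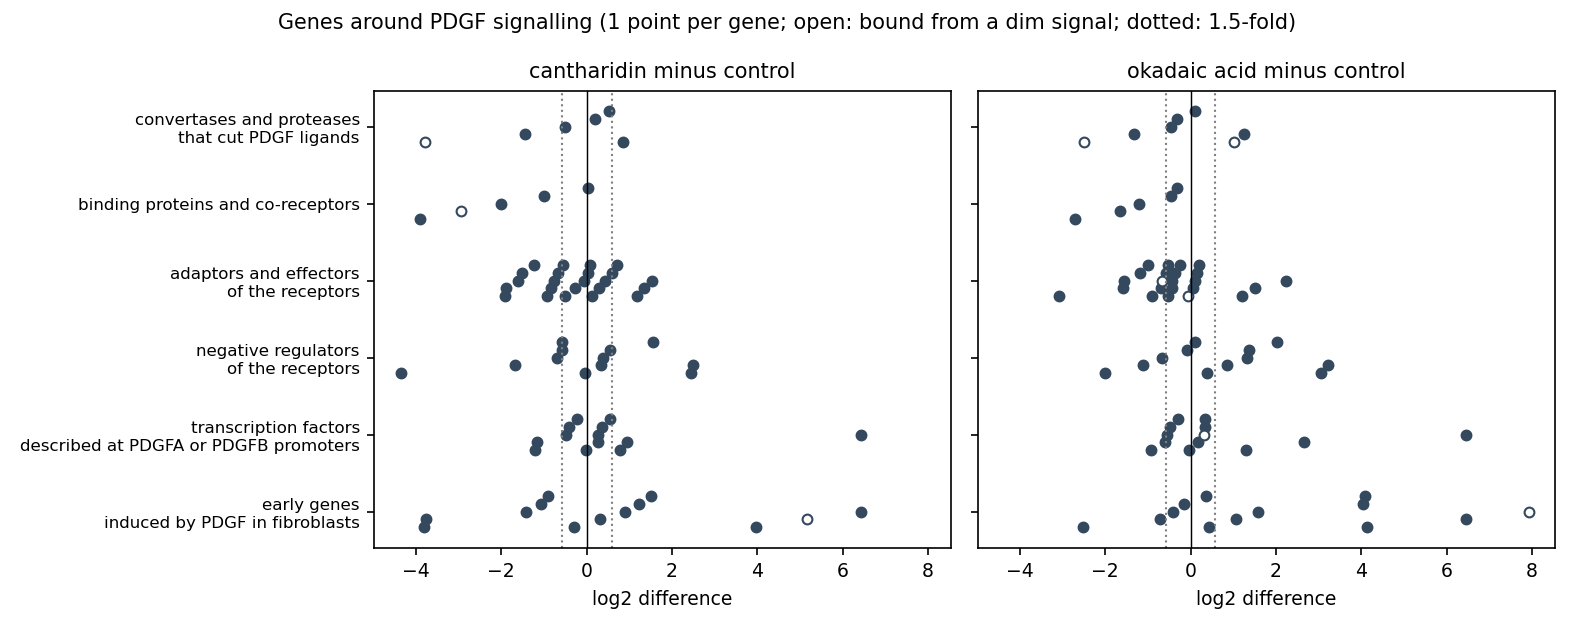
Log2 difference from control of each compared gene in the 6 lists around PDGF signalling (1 point per gene; open points are bounds because 1 signal was not well above background), for cantharidin on the left and okadaic acid on the right, with dotted lines at 1.5-fold. Each gene is drawn by its brightest probe, and on these no binding protein or co-receptor lay above the upper line, although other probes of LRP1 and HSPG2, not drawn, did under okadaic acid.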

How the data were processed

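Gene expression was measured in PANC-1 cells on 3 Agilent 1-colour arrays, 1 each for control, cantharidin and okadaic acid, which the titles of the samples name. The authors deposited the scanner's spot intensity values. Per the file headers, they came from Feature Extraction 11.0.1.1 and were background-subtracted and detrended, without scaling between arrays, and annotated on hg19. Outlier, saturation and background flags, also deposited by the authors, were used for filtering. The authors also deposited normalized log2 values, in 30923 rows with all 7 PDGF probes, whose normalization method is not given in the sources used here. Each column correlated best with its own array, and the column medians were 7.743, 7.742 and 7.743.

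Log2 intensity was averaged over unflagged spots, giving 34041 probes (999 designs carry 10 spots), and the 75th percentile of each array was subtracted. Between 324 and 581 of 43118 spots per array were flagged, and no probe was saturated. Names came from RefSeq GRCh38.p14 by accession. Comparison of a probe required the software's well-above-background flag on 1 or both arrays, with calls at 1.5-fold, the fold of the study's comparison. Where 1 signal was dim, the fold is a lower bound, the bright signal over either the dim signal or, if higher, the lowest detected signal of that array, while calls used the signals as scanned. Spot noise was the SD of log2 signal over repeated spots, at the median 0.06 in control cells, 0.09 after cantharidin and 0.07 after okadaic acid, and the number of arrays limits the precision.

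The PDGF genes and all lists were chosen with earlier results of these data known. Named genes were the 6 members, of each list at most 4 past 1.5-fold under both agents in 1 direction (largest smaller change) and at most 3 in opposite directions, measured on all arrays, and the 3 genes nearest to PDGFA and PDGFB by Euclidean distance. Alternatives were normexp (offset 50, on the median spot signal and median background), median scaling, the 75th percentile over detected probes, quantile normalization, no scaling, no filter, detection on all 3 arrays, dim signals at the floor, a 2-fold threshold, the deposited table, counting genes, and the median over a gene's probes. Counting was tested on simulated data. R 4.3.3, limma 3.58.1, Python 3.11.15, numpy 2.4.6, pandas 2.3.3 and matplotlib 3.10.9 were used.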

Additional observations from a re-analysis of the deposited data

How the results depend on the processing

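No called PDGF probe changed direction. Of the family counts under the alternatives, 80 of 84 were within 1.5 times the main count, and of the pathway counts 73 of 78. Median scaling gave 2 PDGF probes lower under okadaic acid in place of 1, since PDGFB then passed 1.5-fold. With no filter on dim probes, 3 were higher under okadaic acid in place of 1. Requiring detection on all 3 arrays removed PDGFRB, which left 0 probes higher under cantharidin and 0 lower under okadaic acid than under cantharidin, in place of 1 each. For pathway genes, a 2-fold threshold gave 11 higher under cantharidin in place of 17, 13 lower under okadaic acid in place of 20, and 18 higher and 6 lower for okadaic acid against cantharidin in place of 31 and 11; no scaling also gave 6 lower there. The PDGFB difference under cantharidin ranged from -2.44 to -2.02, those of PDGFC from -1.99 to -1.64 and, under okadaic acid, from -2.02 to -1.65. For PDGFA under okadaic acid the range was 0.72, with the median over its probes, to 1.68. The median of all probes moved from -0.30 to -0.09 under cantharidin, from -0.13 to 0.25 under okadaic acid and from -0.04 to 0.51 between the agents, without scaling reaching the last value. Centring within 16 blocks of the array and keeping outlier spots were chosen after the data were seen. No paired analysis was possible because each group holds 1 array. Among the dimmest repeated probes, the SD over spots was 0.15 to 0.16 at the median, so differences of dim probes are the least certain.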

Other observations

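Genes that lie near the PDGF genes in RefSeq order were read as well, a choice made after the data were seen. Only some of them are given here. Beside PDGFRB, CSF1R, the macrophage colony-stimulating factor receptor, read 66.5 in control cells, 166 under cantharidin and 190 under okadaic acid, and the homeobox gene CDX1 on the other side read 1260, 1114 and 1238 on its brighter probe, with its other probe at 0.82 under cantharidin and -0.11 under okadaic acid (log2). Both neighbours were well above background on all 3 arrays. Further from PDGFRB, HMGXB3 read 3840, 13329 and 23383, and SLC6A7 read 44.5, 74.8 and 381. Beside PDGFRA, the receptor tyrosine kinase gene KIT stayed below background throughout, and KDR, a VEGF receptor, read 115, 505 and 37.9, the last below background. Close to PDGFB, the polycomb gene CBX7 read 1118, 742 and 1339 on the probe with the highest mean signal but 1400, 228 and 433 on its other probe, the ribosomal protein gene RPL3 141820, 121212 and 95974, and SYNGR1, a synaptic vesicle protein gene, 1322, 206 and 174. All 4 SYNGR1 probes were past 1.5-fold lower after both agents, whereas PDGFB was past it after cantharidin and not after okadaic acid. FAM20C, a secretory pathway kinase gene beside PDGFA, read 1275, 645 and 792. Beside PDGFC, CTSO read 113, 39.3 and 21.5, the last below background. Beside PDGFD, DDI1 read 6.95, 90.9 and 18.6 and was well above background under cantharidin alone. The divergent transcript PDGFA-DT stayed below background on all arrays.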
